A study of Mus musculus with 5 samples.

Results

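The transcripts of 8 complement genes were followed through obstruction of the mouse kidney and its release: C3, C4b, Cfb, Cfi, Cfp, C3ar1, C5ar1 and Serping1. They were chosen by gene symbol, as the central component, its partners, its regulators and its receptors, and all 8 were found among the 28692 gene identifiers of the droplet tables. The list was drawn up with earlier results of these data known, so counts over it below describe it and are no independent test. The kidneys came from C57/BL6 mice aged 8 weeks, and the labels name no engineered allele in any group. In the model, called UUO, 1 ureter is obstructed so that the kidney behind it is injured. In reversible UUO the obstruction is later relieved. The 4 groups were a sham-operated kidney, a kidney 2 days after UUO (day 2), a kidney 7 days after UUO (day 7), and a kidney taken 7 days after reversal, on experimental day 14 (reversed). Each group was 1 droplet library made from the pooled kidneys of 3 mice, digested on ice and sorted only for live cells. The library and the condition therefore cannot be told apart, the mice within a pool cannot be separated, and no difference below has a replicate check or a p-value. A further sample held single cells processed in plates with Smart-seq2, a full-length method, with all time points mixed.

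Complement is a cascade of plasma proteins that coats a target and recruits phagocytes. All of its routes meet at C3, which is cleaved into C3b, which binds covalently to surfaces, and C3a, a peptide that attracts and activates leukocytes. C4b encodes complement C4, which with C2 forms the C3-cleaving enzyme of the classical and lectin routes. Factor B, from Cfb, does the same in the alternative route, where properdin, from Cfp, stabilises the enzyme. Factor I, from Cfi, degrades C3b and C4b, and the C1 inhibitor, from Serping1, blocks the first proteases. C3ar1 and C5ar1 encode the cell-surface receptors for the peptides C3a and C5a. The liver makes most plasma complement, but kidney tubule cells and macrophages are known local sources.

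The promoters of C3 and Cfp are shown because these genes differed in the cells that carried them, C3 in both tubule cells and phagocytes and Cfp nearly all in phagocytes. RefSeq sequences on GRCm38.p6 were matched for 4 of the 8 genes (C3, Cfp, C3ar1 and C5ar1), each with 250 bases before and 50 bases after the annotated start. Both windows lie on the minus strand, C3 at chr17:57228087-57228386 and Cfp at chrX:20931506-20931805. Capitals mark the letters matched by the searched motifs TTGCNNAA and TATAAA in C3, and TTCCTC, the reverse complement of GAGGAA, in Cfp.
C3: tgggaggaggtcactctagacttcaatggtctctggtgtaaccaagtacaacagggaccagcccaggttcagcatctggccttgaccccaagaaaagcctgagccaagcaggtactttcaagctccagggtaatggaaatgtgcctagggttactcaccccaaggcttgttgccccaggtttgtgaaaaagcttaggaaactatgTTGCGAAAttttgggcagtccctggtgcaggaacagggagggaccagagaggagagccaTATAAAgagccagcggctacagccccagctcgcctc
Cfp: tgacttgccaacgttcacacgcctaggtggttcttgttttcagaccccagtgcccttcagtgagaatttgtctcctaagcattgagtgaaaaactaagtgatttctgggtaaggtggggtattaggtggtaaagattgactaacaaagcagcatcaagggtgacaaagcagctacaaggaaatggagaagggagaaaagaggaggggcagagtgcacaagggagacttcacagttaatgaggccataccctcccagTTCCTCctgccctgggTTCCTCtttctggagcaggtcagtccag
In C3, TTGCGAAA lay 45 bases before the start, and TATAAA began 14 bases after it. TTGCNNAA was present on either strand in 10.8% of 32851 promoter windows of the same length, and TATAAA in 13.6%. In Cfp, TTCCTC lay 6 and 22 bases after the start. GAGGAA, a search added after seeing the data, occurred on either strand in 28.3% of the windows. The C3ar1 window held TATAAA 235 bases before its start, and the C5ar1 window held no match. The other motifs searched on both strands were TTCNNNGAA, an interferon-response element and an NF-kB element, found in 8.30%, 3.44% and 0.155% of all windows, and none of these 3 was found in the 4 windows. A match is a match of letters only, and no measurement here bears on binding.

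The droplet libraries held 5938, 2739, 4504 and 3695 deposited cells in sham, day 2, day 7 and reversed order, which is the order used throughout, and 3746, 2159, 4287 and 3140 cells were kept. Median depth of kept cells was 2661, 6547, 5646 and 4867.5 UMIs (unique molecular identifiers, 1 per captured transcript), and the median mitochondrial share of deposited cells was 40.6%, 16.2%, 3.00% and 14.0%. The sham library thus stood apart by low depth and a high mitochondrial share, and its values are given with and without its high-mitochondrial cells where these differ. Each pair of libraries shared 16 to 39 cell barcodes. Each cell was placed in a class by counting detected genes of 8-gene marker lists, none of which held any of the 8 complement genes. Proximal tubule cells numbered 2985, 577, 187 and 1104, and mononuclear phagocytes 50, 530, 2323 and 570. Between 3.15% (sham) and 10.7% (day 7) of cells matched no class clearly. Markers of other classes were read in lymphoid cells, and are called free RNA below, though their source was not tested. Proximal tubule markers in lymphoid cells reached 12.8%, 11.8%, 14.9% and 14.5% of their level over the whole library. Phagocyte markers there reached 67.0% (4 UMIs), 18.6%, 16.6% and 25.9%, which bears on Cfp, C3ar1 and C5ar1 outside phagocytes. Levels are CPM, UMIs of the gene per 1000000 UMIs of the class, and brackets give exact Poisson 95% intervals that cover counting error only.

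The 8 genes differed in the class that carried their UMIs. Cfp, C3ar1 and C5ar1, which encode properdin and the receptors, were phagocyte transcripts: phagocytes held 90.4% of 11412 Cfp UMIs, 94.3% of 5932 C3ar1 UMIs and 93.2% of 6789 C5ar1 UMIs. Cfi and Cfb, which encode the proteases factor I and factor B, were tubule transcripts, with 84.4% of 857 and 68.6% of 2419 UMIs in tubule classes when the libraries were pooled. At day 7, when tubule cells were few, phagocytes held 53.1% of Cfb UMIs and tubule cells 23.4%. C3 and C4b had both sources. Tubule cells held 44.5% and phagocytes 24.7% of 5886 C3 UMIs, while phagocytes held 56.6% and tubule cells 33.1% of 1319 C4b UMIs. That C4b order was set by day 7, with 79.2% in phagocytes and 9.77% in tubule cells. In sham, day 2 and the reversed library tubule cells held more C4b, at 95%, 81.4% and 50.5%, than phagocytes, at 2.5%, 12.9% and 36.5%. For C3 the tubule share was 76.0% at day 2 and 30.6% at day 7, when phagocytes held 34.0%. A further 21.1% of all C3 UMIs lay in cells with markers of more than 1 class. After reversal these held 28.4%, more than the 18.2% in phagocytes. Of those 309 UMIs, 212 lay in 50 cells whose cluster was named podocyte, after the filter cells. These 50 cells read 340 CPM, above the 37.4 of gated proximal tubule cells. A cluster took the name of its most frequent gated class. Only 2 cells of the reversed library passed the podocyte gate, and they held 0 C3 UMIs. Whether the 50 cells are podocytes was thus not settled. Another 32 UMIs lay in 20 podocyte-cluster cells that matched no class, at 319 CPM. Serping1 was the stromal member in the pooled sum, with 45.2% of 2382 UMIs in the few stromal cells. Another 32.7% lay in cells that carried markers of more than 1 class. By library, stroma held 1.16%, 33.3%, 44.8% and 52.6% and mixed-marker cells 70.9%, 17.3%, 33.8% and 29.8%. In sham, endothelium held 15.1% and tubule cells 11.6% of 86 UMIs. These shares depend on how many cells of each class a library holds, so levels within classes are given below.

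**Figure D1:**
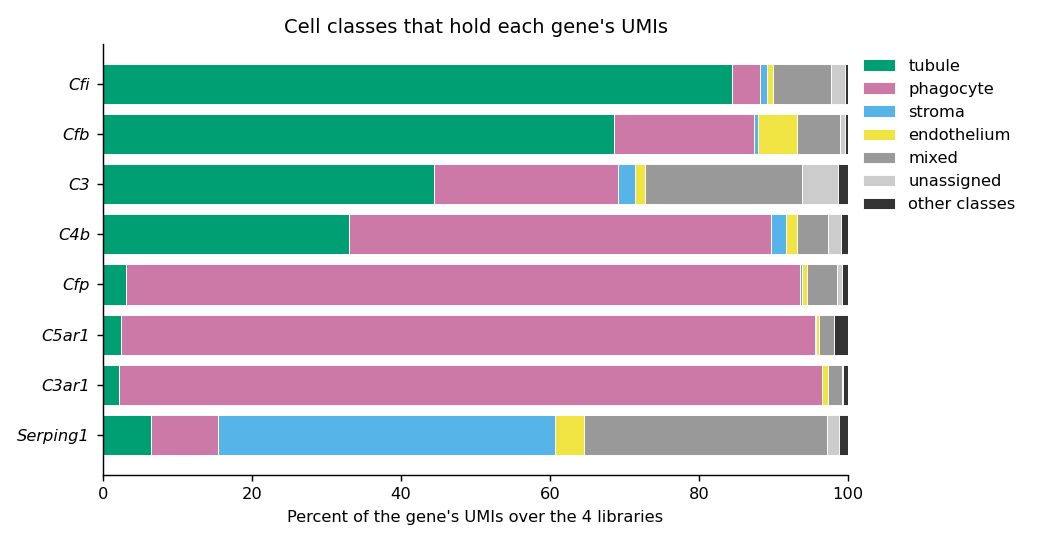
Percent of each gene's UMIs, summed over the 4 droplet libraries, by class of cell (stacked bars, 0 to 100%). Cfp, C3ar1 and C5ar1 are nearly all phagocyte, Cfi and Cfb mostly tubule in this pooled sum, C3 and C4b divided, and Serping1 stromal or in mixed cells.

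C3, the component on which all routes converge (chr17:57203970-57228136 on the minus strand of GRCm38), went from near absence to a high level in the proximal tubule, the segment that reabsorbs most of the filtrate. In proximal tubule cells it read 2.58 CPM in sham (25 UMIs) [1.67 to 3.82], 278 at day 2 (871 UMIs) [260 to 298], 562 at day 7 (673 UMIs) [520 to 606] and 37.4 after reversal (232 UMIs) [32.7 to 42.5]. The intervals of the 4 libraries did not overlap, with day 7 highest and sham lowest. Against sham the fold was 108 at day 2 and 217 at day 7, or 6.28 [5.85 to 6.72] and 7.29 [6.85 to 7.73] on the log2 scale with 1 CPM added. Day 7 was 2.02 times day 2. The reversed library was 3.87 lower than day 7 in log2 units (a log2 difference of -3.87 [-4.09 to -3.66]) and still 14.5 times sham. The comparisons share the sham and day 7 libraries. Among all genes tested in proximal tubule cells, C3 ranked 2 of 10027 for day 2 over sham, after Havcr1, the tubule injury marker KIM-1, and 1 of 9684 for day 7 over sham. For the reversed library over day 7 it was the 4th lowest of 9757 genes. For day 7 over day 2 it ranked 625 of 8395, and that difference was under 2-fold when cells were thinned to 1000 UMIs (401 against 255 CPM) or weighted equally (407 against 271 CPM).

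The share of proximal tubule cells with a C3 UMI was 0.570%, 50.3%, 38.5% and 7.16%, and 0.134%, 19.2%, 19.3% and 2.17% once every cell was thinned to 1000 UMIs. T cells, which should lack C3, gave 2%, 8.54% and 4.72% at day 2, day 7 and after reversal, and 2%, 2.14% and 0.394% after thinning. Their median depth was 3613, 3579 and 3172 UMIs, against 4406, 5273 and 4541 in the proximal tubule. The tubule shares were far above the T cell shares at day 2 and day 7 and closer to them after reversal. At day 7 C3 was uneven between cells: the top 10% of cells, 19 cells, held 77.0% of the proximal tubule's C3 UMIs and the highest cell held 75. At day 2 the top 10%, 58 cells, held 53.8%, and the highest cell held 25.

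The sham level of C3 depended on the mitochondrial share of the cells. In proximal tubule cells with at most 20% mitochondrial UMIs, C3 read 18.0 CPM in sham (15 UMIs, 223 cells), 266 at day 2, 729 at day 7 and 116 after reversal. In those with 20 to 50%, it read 1.13 CPM (10 UMIs, 2762 cells), 285, 311 and 14.4. Day 2 and day 7 were above sham in both ranges, while the day 7 excess over day 2 was large only in the low-mitochondrial cells. With the low-mitochondrial cells alone, C3 ranked 17 of 6117 for day 2 over sham and 10 of 5764 for day 7 over sham. Scaling also matters for the size: TMM scaling moved the median of all tubule genes by -0.51 at day 2 and -0.82 at day 7 against sham, small beside the C3 differences.

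**Figure D2:**
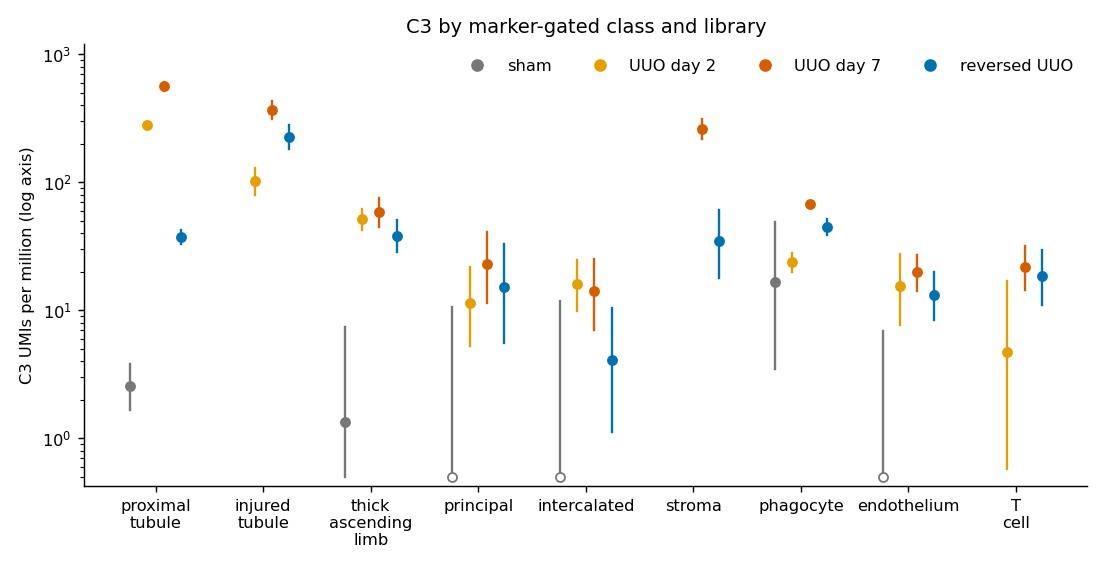
C3 level by class and library, in CPM on a log axis, with exact Poisson 95% intervals as bars. Open circles at the lower edge mark 0 UMIs, and classes with under 30 cells in a library are not drawn. Proximal tubule, stromal and injured tubule cells reach the highest day 7 values, at 562, 261 and 367 CPM.

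C3 was read in other tubule classes too. Thick ascending limb cells, the diluting segment, had 1.33 CPM of C3 in sham (1 UMI), 51.5 at day 2, 58.5 at day 7 and 38.3 after reversal. Reversed cells of this segment were within 2-fold of day 7 (log2 difference -0.60 [-1.15 to -0.05]), unlike the proximal tubule, a contrast between segments that was not tested. Principal cells of the collecting duct read 0, 11.5, 22.9 and 15.1 CPM, and intercalated cells, its acid-base cells, 0, 16.1, 14.1 and 4.09. A count of 0 UMIs in these sham cells still allows 3 UMIs. Lymphoid cells, which should lack C3, read 0, 6.97, 20.8 and 18.7 CPM. Principal and intercalated values at day 7 and after reversal were thus near or under the lymphoid level. Cells gated on injury markers such as Havcr1, Krt20 and Lcn2 read 102 [80.0 to 128] at day 2, 367 [313 to 428] at day 7 and 226 [181 to 278] after reversal, and were too few in sham, at 4 cells.

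Within the proximal tubule, cells with injury markers were compared with cells without them in the same library, after thinning. Cells with 0 markers held C3 at 2.25, 241, 494 and 32.5 CPM. Cells with exactly 1 marker held it at 11.98, 388, 772 and 57.8 CPM, higher in each of the 4 libraries, though sham rested on 4 UMIs. Differences between libraries were thus also present in cells with no injury marker detected at this depth. With markers counted on all UMIs instead, cells with 0 markers read 1.35, 220, 242 and 9.02 CPM. Cells with at least 2 markers were few, at 24, 4 and 7 cells at day 2, day 7 and after reversal, with 400, 499 and 365 CPM. Over all tubule classes the order was another at day 2 and day 7 but not after reversal: at day 2, cells with 0, 1 and at least 2 markers read 176, 126 and 69.8 CPM of C3, at day 7 they read 291, 224 and 137, and after reversal 27.9, 71.1 and 138. There the marker groups also differ in segment, so the proximal tubule was looked at alone, a choice made after seeing the data.

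Different transcriptional clusters held most of the proximal tubule class in different libraries. In sham, the clusters led by Spp2 and Gpx3, by Snhg11 and Slc22a30, and by Slc7a13 and Kap read 0.359, 0.604 and 3.55 CPM of C3. At day 2, the cluster led by the fibrinogen genes Fgg, Fga and Fgb read 279 CPM (395 cells), and that led by Snhg11 and Slc13a1 read 297 (149 cells). At day 7 the class divided: a Kap and Slco1a1 cluster, both genes of the mature proximal tubule, read 41.6 CPM [22.1 to 71.1] in 59 cells, and the Snhg11 and Slc13a1 cluster 864 [797 to 935] in 85 cells. After reversal the Kap and Slco1a1 cluster read 10.9, the Spp2 and Ttr cluster 11.5 and the Snhg11 and Slc13a1 cluster 80.3. Clusters were built with C3 among the genes, so these values describe them and test nothing. Mixed-marker cells that lay in proximal tubule clusters at day 7 held C3 at 1305 CPM (46 cells, 544 UMIs), above the gated class. After reversal they held it at 518 CPM (15 cells, 75 UMIs), against 37.4 in the gated class. In sham they held 0 UMIs (6 cells), and at day 2 they read 314 CPM (20 cells). Cells of these clusters that matched no class read 2695 CPM after reversal (2 cells, 22 UMIs).

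**Figure D3:**
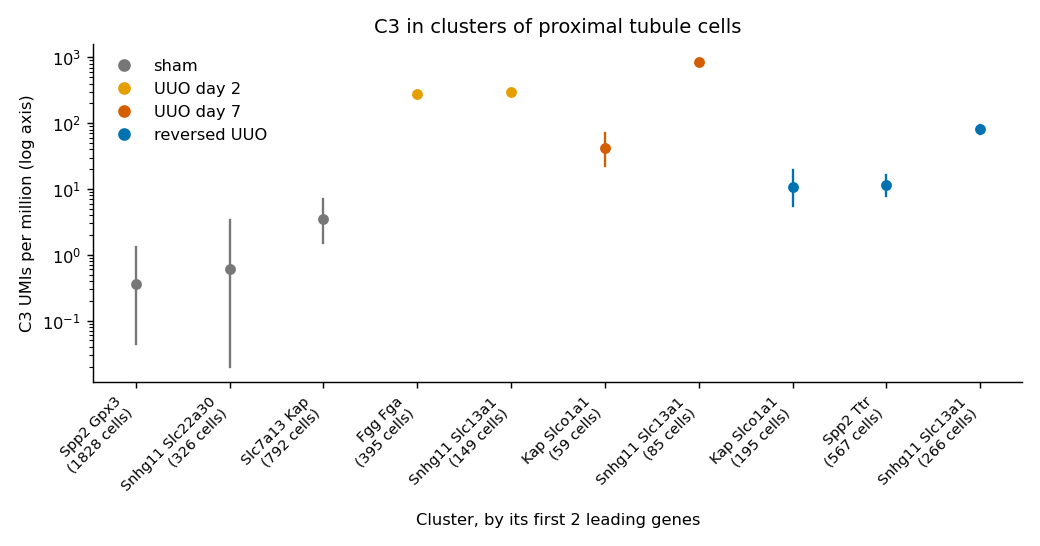
C3 level in CPM (log axis, exact Poisson 95% intervals) in the clusters that hold proximal tubule cells, for each library. At day 2 the clusters drawn lie close together, while at day 7 they range from 41.6 to 864 CPM.

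Outside the tubule, C3 was also found in stroma and in phagocytes. Stromal cells, the fibroblasts and pericytes, read 261 CPM at day 7 (121 UMIs) [217 to 312] and 34.7 after reversal (12 UMIs) [17.9 to 60.6], intervals that do not overlap. The top 10% of stromal cells, 6 cells, held 81.0% of these UMIs at day 7, with 30 in 1 cell, and 91.7% after reversal. With each cell thinned, stromal C3 read 407 and 58.8 CPM. The summed stromal markers of these cells moved alongside, at 31468 CPM at day 7 and 11627 after reversal. Phagocyte markers in them read 440 and 147 CPM. Their part in the C3 difference was not tested. Sham and day 2 gave only 2 and 11 stromal cells and are not compared. Phagocytes read 16.7 CPM in sham (3 UMIs) [3.45 to 48.9], 23.8 at day 2, 67.4 at day 7 and 44.5 after reversal. Day 7 was above day 2 by 1.46 [1.22 to 1.72] in log2 units. The day 2 level was 37.7 CPM after thinning and 15.2 after free-RNA subtraction, and the difference was past 2-fold with either. The reversed level lay inside the sham interval and the day 7 level above it. The Ly6c2-high monocytes, recently arrived blood monocytes, had the higher phagocyte levels, at 64.3, 122 and 131 CPM at day 2, day 7 and after reversal, and macrophages read 15.02, 68.98 and 35.2. Phagocyte C3 was uneven too, with 68.2% of the day 7 UMIs in the top 10% of cells. For comparison, lymphoid cells read 0, 6.97, 20.8 and 18.7 CPM and endothelium 0, 15.5, 19.8 and 13.2, so levels near 20 CPM at day 7 were also those of lymphoid cells. With a gate margin of 1, endothelium read 34.5 CPM at day 7 and 25.2 after reversal.

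C4b, the partner of C3 in the classical and lectin routes (chr17:34728380-34743882), differed from C3 in time and place. In proximal tubule cells it read 3.83 CPM in sham (37 UMIs), 49.2 at day 2 (154 UMIs) [41.8 to 57.7], 50.9 at day 7 (61 UMIs) [38.9 to 65.4] and 23.4 after reversal (145 UMIs). Day 2 and day 7 were alike within counting error, at a log2 difference of 0.05 [-0.40 to 0.48], and both were above sham, by 3.38 and 3.43. The reversed library lay between, -1.09 from day 7 and 2.34 from sham. The difference from day 7 was under 2-fold in cells with at most 20% mitochondrial UMIs (29.1 against 57.0 CPM) and when the class was taken by cluster (22.1 against 42.3 CPM). In the thick ascending limb it stayed at or below 2.30 CPM in every library, and injured tubule cells, which held C3 at up to 367 CPM, read 8.27, 4.51 and 2.54 CPM of C4b at day 2, day 7 and after reversal. In cells with at most 20% and with 20 to 50% mitochondrial UMIs, C4b read 3.61 and 3.85 CPM in sham, 45.4 and 51.2 at day 2, 57.0 and 41.7 at day 7 and 29.1 and 21.7 after reversal. The near-identical gene C4a is not in the droplet gene list and was not analysed here, so reads of C4a could be among those counted as C4b.

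In phagocytes C4b was low at day 2 and high at day 7. It read 5.57 CPM in sham (1 UMI), 4.59 at day 2 (27 UMIs), 36.8 at day 7 (608 UMIs) [34.0 to 39.9] and 24.7 after reversal (110 UMIs). The day 7 to day 2 difference was 2.76 [2.28 to 3.25] in log2 units, rank 26 of 11771 genes tested. Macrophages read 4.79, 50.5 and 37.0 CPM at day 2, day 7 and after reversal. Ly6c2-high monocytes read 6.03 CPM (6 UMIs), 29.9 (30 UMIs) and 4.86 (1 UMI), so the macrophage interval lay above theirs at day 7 and after reversal and overlapped it at day 2. Type 2 dendritic cells, which present antigen to helper T cells, read 1.22, 6.93 and 1.74. Among macrophage clusters at day 7, the one led by Ccl8, Ms4a7 and C1qc read 63.0 CPM, and the one led by Mmp12 and Retnla read 19.6. After reversal the same pair read 58.5 and 3.76. The Ccl8 cluster held under 30 phagocytes at day 2, so the class was made of different clusters at the 2 times, and within the Mmp12 cluster, present at both, C4b read 5.04 CPM at day 2 against the 19.6 at day 7. In stroma C4b read 51.8 CPM at day 7 (24 UMIs) and 5.78 after reversal (2 UMIs).

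Cfb, which encodes the protease of the alternative route (chr17:34856374-34862518), was already present in the sham proximal tubule and moved little there. It read 76.4 CPM in sham (739 UMIs) [71.0 to 82.1], 101 at day 2 (317 UMIs) [90.5 to 113], 90.1 at day 7 (108 UMIs) [73.9 to 109] and 64.2 after reversal (398 UMIs) [58.0 to 70.8]. None of the 5 comparisons reached 2-fold, and the furthest from 0 was a log2 difference of -0.48, for the reversed library against day 7. After thinning, day 2 and day 7 read 116 and 48.1 CPM, a gap past 2-fold. In T cells Cfb was at most 4.14 CPM at day 2, day 7 and after reversal, and the few sham T cells held 1 UMI. The thick ascending limb, principal and intercalated cells read at most 5.78 CPM in any library, and injured tubule cells 6.89, 27.05 and 15.2 at day 2, day 7 and after reversal. Over all tubule classes together Cfb was lower than sham, with a log2 difference of -0.72 at day 2 and -0.98 at day 7, while proximal cells went from 2985 of 3352 to 577 of 1149 and 187 of 583. That Cfb difference at day 2 became past 2-fold under other settings, at -1.22 with TMM scaling, -1.30 with DESeq2 size factors and -1.29 with the 20% mitochondrial limit, and nearer 0, at -0.21, after thinning, so its side of 2-fold depended on the processing. At day 7 against sham, TMM scaling moves tubule ratios by -0.82 in log2 units, which takes the Cfb difference past 2-fold too. Endothelial cells, which line the vessels, held 11.1 CPM (6 UMIs), 39.3 (28 UMIs) [26.1 to 56.9], 18.8 (38 UMIs) and 31.5 (55 UMIs). Phagocytes read 5.57 (1 UMI), 11.9, 20.2 and 11.2 CPM, and the sham level was 20 CPM after thinning, so no difference of day 7 from sham can be read. Cfb shares its locus with Gm20547 on the same strand, which had 0 UMIs in these tables.

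Cfi, which encodes the protease that inactivates C3b (chr3:129835884-129875332, plus strand), followed C4b in the proximal tubule. It read 7.13 CPM in sham (69 UMIs), 62.3 at day 2 (195 UMIs) [53.9 to 71.7], 59.2 at day 7 (71 UMIs) [46.3 to 74.7] and 28.2 after reversal (175 UMIs). Against sham the log2 difference was 2.96 [2.59 to 3.33] at day 2 and 2.89 at day 7, and the reversed library was -1.04 from day 7. After thinning, day 7 and the reversed library read 32.1 and 30.8 CPM, so that last difference was no longer past 2-fold. Cfi was also found in intercalated cells, at 9.68 CPM (3 UMIs), 32.1 (40 UMIs) [23.0 to 43.8], 61.7 (48 UMIs) [45.5 to 81.8] and 26.6 (26 UMIs) [17.4 to 39.0]. There the day 7 interval lay above those of day 2 and the reversed library. In the thick ascending limb, principal cells and phagocytes it was at most 8.42 CPM in any library, and injured tubule cells read 11.02, 4.51 and 25.4 at day 2, day 7 and after reversal, from 2 to 10 UMIs.

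**Figure D4:**
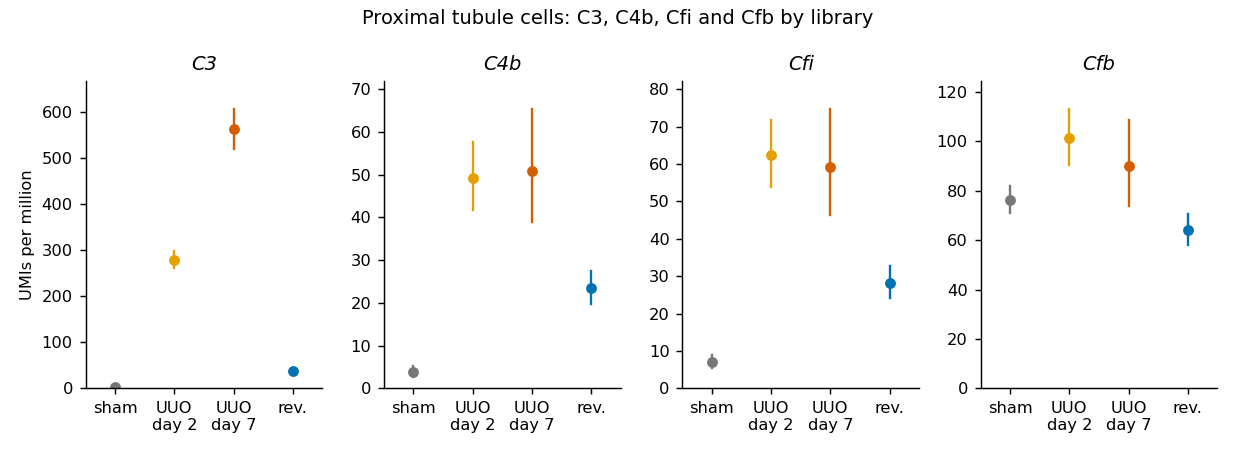
Levels of C3, C4b, Cfb and Cfi in proximal tubule cells of each library, in CPM, with exact Poisson 95% intervals. C3, C4b and Cfi are low in sham, high at day 2 and day 7 and between these after reversal, while Cfb stays within 2-fold.

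Counted over all 8 genes, 5 of the 6 that could be tested in proximal tubule cells were past 2-fold higher at day 2 than in sham, where 8.2% of all genes tested were. A gene was tested where a pair of libraries held at least 30 of its UMIs. At day 7 against sham it was 4 of 5 (all genes 20.7%), and at day 7 against day 2 it was 2 of 6 (all genes 7.7%), which were C3 and Cfp, and C3 was under 2-fold after thinning or equal weighting. In the reversed library 5 of 8 were past 2-fold lower than at day 7 (all genes 7.55%) and 7 of 8 higher than sham (all genes 8.18%). A gene could pass the filter through the library where it was high, and its call then follows in part from the filter. In the reversed and sham libraries Cfp held 63 and 2 UMIs, C3ar1 31 and 0, C5ar1 29 and 6 and Serping1 31 and 9. The same filter was applied to all genes, and these counts and medians describe the list and test nothing. The median log2 difference of the tested genes was 3.17 at day 2, 3.43 at day 7 and 2.09 after reversal against sham, beside 0.25, 0.45 and 0.23 over all genes tested. These counts include Cfp, C3ar1 and C5ar1, whose proximal tubule levels were those of cells that should lack them. At day 7 Cfp read 33.4 CPM in proximal tubule, 29.6 in endothelium and 30.04 in T cells. C3ar1 read 14.2, 16.8 and 20.3, and C5ar1 10.01, 10.4 and 14.6. The summed phagocyte markers in proximal tubule cells moved alongside, at 16.7, 101, 466 and 162 CPM with all 8 detected in each library, against 5288 to 7387 in phagocytes themselves. Their part in the counts for these 3 genes was not tested. Without them, the genes past 2-fold against sham were C3, C4b and Cfi at day 2 and day 7, with Serping1 added after reversal, where its level was 5.00 CPM. Without them, the genes past 2-fold lower in the reversed library than at day 7 were C3, C4b and Cfi, and of these only C3 was past 2-fold with the 20% mitochondrial limit, where C4b read 29.1 against 57.0 CPM and Cfi 33.4 against 59.8.

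Over all tubule classes, 5 of 7 tested genes were past 2-fold higher at day 2 than in sham (all genes 20.6%), 7 of 8 at day 7 (all genes 36.2%) and 7 of 8 after reversal (all genes 18.9%). At day 7 against day 2 it was 3 of 8 (all genes 5.38%), which were Cfp, C3ar1 and Serping1. The reversed library against day 7 gave 4 of 8 lower (all genes 5.49%), which were C3, Cfp, C3ar1 and C5ar1. After thinning that count was 3, and C3ar1 turned direction, from -1.05 to 0.72. After free-RNA subtraction the day 2 against sham count, in either direction, was 4, with Cfp at -0.14 and C5ar1 at -0.26 in log2 units, the day 7 against day 2 count was 1 and the reversed against day 7 count was 2. With a pseudocount of 10 CPM the day 7 against day 2 count was 0, and with TMM scaling or DESeq2 size factors the reversed against day 7 count was 2. C3 read 2.30, 133, 226 and 45.6 CPM over these classes. With the 20% mitochondrial limit the reversed level was 93.4 CPM, and the log2 difference of day 2 against sham was 2.82 in place of 5.34.

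In phagocytes the genes for properdin and for the C5a and C3a receptors each had its own time course. Cfp (chrX:20925454-20931555, minus strand), which encodes the stabiliser of the alternative-route enzyme, read 89.2 CPM in sham (16 UMIs) [51.0 to 145], 533 at day 2 (3135 UMIs) [515 to 552], 361 at day 7 (5960 UMIs) [352 to 370] and 271 after reversal (1206 UMIs) [256 to 287]. The 4 intervals did not overlap, and the order was day 2, day 7, reversed, sham. Day 2 was above sham by 2.57 [1.87 to 3.36] in log2 units, and day 7 was -0.56 [-0.62 to -0.50] from day 2. A Cfp UMI was found in 12%, 83%, 67.8% and 56.1% of phagocytes, or 6%, 35.5%, 25.4% and 18.6% after thinning, against 12%, 12.5% and 4.72% of T cells at day 2, day 7 and after reversal. The sham phagocytes numbered 50, so their values are the least certain. Of their 16 Cfp UMIs, 93.75% lay in 5 cells, and the sham level was 56.9 CPM with each cell counted equally.

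C5ar1, which encodes the receptor for C5a (chr7:16246743-16259540, minus strand), was highest at day 2. It read 156 CPM in sham (28 UMIs) [104 to 225], 439 at day 2 (2580 UMIs) [422 to 456], 173 at day 7 (2862 UMIs) [167 to 180] and 193 after reversal (856 UMIs) [180 to 206]. Day 2 stood above the other 3 libraries, which lay within 0.30 of one another in log2 units. The day 7 to day 2 difference was -1.33 [-1.41 to -1.26], the 101st lowest of 11771 genes. C3ar1, which encodes the receptor for C3a (chr6:122847138-122856161, minus strand), changed less. It read 150 CPM (27 UMIs) [99.1 to 219], 138 (811 UMIs), 229 (3777 UMIs) and 220 (979 UMIs), with day 7 above day 2 by 0.73 [0.62 to 0.84] and the reversed library -0.06 [-0.16 to 0.05] from day 7. Over the whole class C5ar1 was thus lower and C3ar1 higher at day 7 than at day 2, but the class was made of different clusters at the 2 times. In the macrophage cluster led by Mmp12 and Retnla, present at both, C3ar1 read 208 CPM at day 2 and 137 at day 7, and C5ar1 598 and 138. In the monocyte cluster led by Chil3 and Hp, C3ar1 read 63.3 and 47.4 CPM. The higher C3ar1 of the class at day 7 was read in the clusters led by Ccl8 and by Ccl3, at 384 and 398 CPM, which held under 30 phagocytes at day 2.

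The sub-types of phagocyte differed in these genes within each library. Macrophages held C5ar1 at 653, 253 and 278 CPM at day 2, day 7 and after reversal, and Ly6c2-high monocytes at 361, 56.9 and 136. Type 2 dendritic cells held it at 18.3, 13.4 and 5.21, near the T cell level of 14.6 at day 7. C3ar1 followed the same order, at 226, 337 and 327 CPM in macrophages, 53.2, 48.9 and 29.2 in Ly6c2-high monocytes and 8.54, 23.6 and 13.9 in type 2 dendritic cells. Cfp was highest in type 2 dendritic cells, which read 910, 751 and 663 CPM. Macrophages read 568, 313 and 220 and Ly6c2-high monocytes 259, 326 and 272, so macrophages were the higher of these at day 2 only. Type 1 dendritic cells, which cross-present antigen, read 132 CPM of Cfp at day 7 and 44.8 after reversal. Within macrophages alone, day 7 was again lower than day 2 for C5ar1 (log2 difference -1.36 [-1.45 to -1.28]) and for Cfp (-0.86 [-0.94 to -0.77]). Within the Mmp12 cluster, however, Cfp read 556 CPM at day 2 and 532 at day 7, a smaller difference than over all macrophages, and C5ar1 598 and 138. In neutrophils, the granulocytes that C5a attracts, C5ar1 had 33 of 42444 UMIs in 12 cells at day 2, 39 of 86304 in 28 cells at day 7 and 15 of 31617 in 10 cells after reversal.

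**Figure D5:**
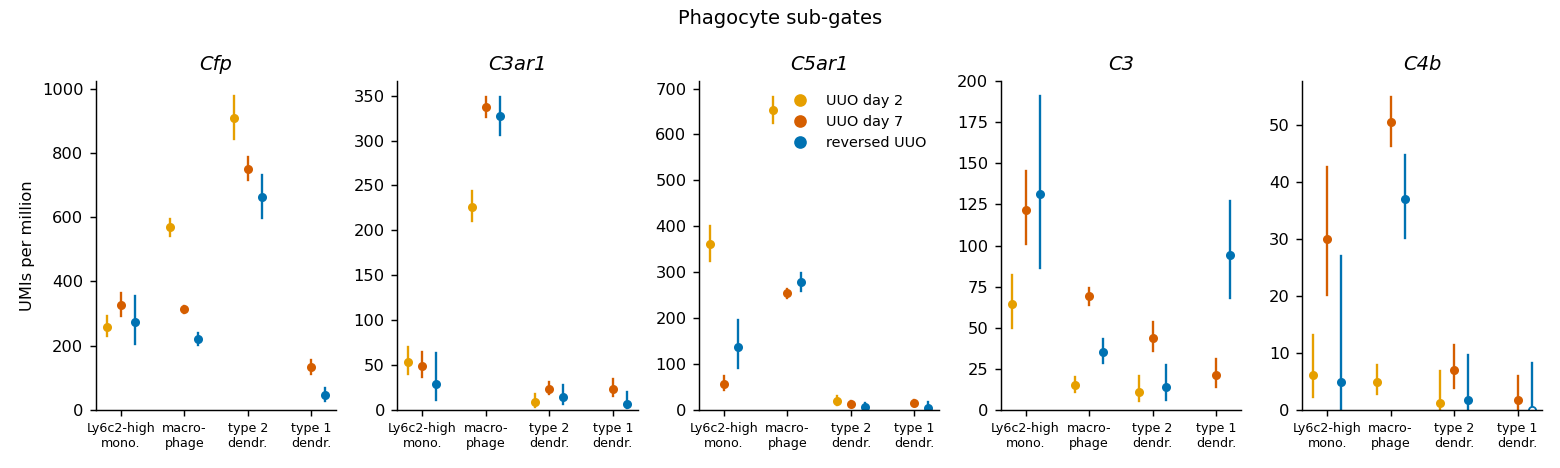
Levels of the phagocyte genes in sub-types of phagocyte at day 2, day 7 and after reversal, in CPM on linear axes, with exact Poisson 95% intervals. Sub-types with under 30 cells in a library, and sham, are not drawn. Cfp is highest in type 2 dendritic cells, while C3ar1 and C5ar1 are highest in macrophages.

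Counted over the 8 genes, 3 of 7 tested in phagocytes were past 2-fold higher at day 7 than at day 2 (all genes 8.15%) and 1 was lower (all genes 2.5%). The 3 were C3, C4b and Serping1, and the other was C5ar1. Serping1 passed the 30-UMI filter through day 7 alone, with 187 UMIs against 1 at day 2, so its call follows in part from the filter. Summed stromal markers in phagocytes read 11.4 CPM at day 2 and 115 at day 7, and their part in it was not tested. Against sham, 2 of 5 were higher at day 2 (all genes 21.5%), Cfp and C5ar1, and 5 of 7 at day 7 (all genes 29.6%). Of those 5, C4b and Cfb rested on 1 UMI each in the 50 sham cells, and for Cfb the fold was lost after thinning. Serping1 had 0 UMIs there and lay at day 7 under the 16.7 CPM that 3 sham UMIs would give, so it carries no fold. After reversal 3 of 6 were higher than sham (all genes 20.5%), which were C3, C4b and Cfp. C3 and C4b rested on 3 and 1 sham UMIs, and the intervals of their log2 differences included 0, at 1.36 [-0.15 to 3.37] and 1.97 [-0.34 to 4.51]. The reversed library against day 7 gave 0 of 7 in either direction (all genes 2.97%), with log2 differences from -0.85 for Serping1 to 0.15 for C5ar1. Free RNA subtraction changed that count to 2.

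Serping1, which encodes the C1 inhibitor (chr2:84765387-84775444, minus strand), was read most in stroma at day 7 and after reversal. Stromal cells read 1292 CPM at day 7 (599 UMIs) and 1232 after reversal (426 UMIs), with a UMI in 91.5% and 94.1% of 59 and 51 cells. It was even between these cells, with the top 10% holding 24.0% at day 7 and 35.2% after reversal. At day 2, 50 UMIs were read in the 11 stromal cells, and in sham 1 UMI in 2 cells. Podocytes, the filter cells, were too few to compare, at 1 to 4 cells a library. Still, 1 of the 4 at day 2 held 10 UMIs, and the 2 at day 7 held 4 UMIs together. Endothelium read 24.1 CPM (13 UMIs), 35.1 (25 UMIs), 12.3 (25 UMIs) and 16.6 (29 UMIs), and intercalated cells 0, 12.05, 32.1 and 19.4. Phagocytes read 0 UMIs in sham, 0.17 CPM at day 2 (1 UMI), 11.3 at day 7 (187 UMIs) and 5.85 after reversal (26 UMIs). The summed stromal markers in phagocytes moved alongside, at 11.1, 11.4, 115 and 43.6 CPM (2 of 8 detected in sham, with Col1a1, Col1a2, Col3a1, Lum, Rgs5 and Notch3 at 0, and 8 of 8 in the others), and in proximal tubule cells at 4.96, 10.6, 84.3 and 27.7, where Dcn was at 0 in sham and Notch3 at 0 at day 7. Their part in the Serping1 values of those classes was not tested. Mixed-marker cells lying in stromal clusters held 330 CPM in sham (16 cells), 444 at day 2 (8 cells), 1350 at day 7 (20 cells) and 959 after reversal (22 cells). In sham, mixed-marker cells of the cluster named podocyte held more UMIs, 37 in 2 cells (2601 CPM) against 24 in the stromal clusters. Those of the podocyte cluster read 39.4 CPM at day 7 and 60.9 after reversal. At day 2, podocyte-cluster cells that matched no class held 14 UMIs (6 cells, 255 CPM).

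Of 38 other complement genes listed by role, 37 were in the tables. In phagocytes, 8 of 19 tested were past 2-fold higher (all genes 8.15%) and 0 lower (all genes 2.5%) at day 7 than at day 2. They included C1qa and C1qc, which encode chains of the initiator C1q (log2 differences 1.16 and 1.12), C2 (1.52), the lectin Fcna (1.63, from 5 to 78 UMIs) and the second C5a receptor C5ar2 (1.06). The class was made of different clusters at the 2 times. The Ccl8 cluster, with C1qc and C1qa among its leading genes, held 1122 phagocytes at day 7 and under 30 at day 2. In tubule cells 9 of 15 were past 2-fold higher (all genes 20.6%) and 1 lower (all genes 4.02%) at day 2 against sham. Clu, which encodes clusterin, an inhibitor of the terminal complex, read 59.1, 5551, 3851 and 1127 CPM there. Cd59a, which encodes a membrane inhibitor of that complex, read 25.2, 62.7, 76.4 and 36.7. C8g, a chain of C8, was the 1 that was lower, at 14.8, 2.71, 4.73 and 8.85 CPM. The tubule counts include C1qa at 9.004, 42.5, 333 and 109 CPM, which endothelium held at 7.41, 47.8, 382 and 107. The reversed library against day 7 gave 9 of 20 lower (all genes 5.49%) and 0 higher in tubule cells, and 2 of 20 past 2-fold, both lower, in phagocytes (all genes 2.97% in either direction). Cfd and Hc, which encode factor D and C5, had 0 UMIs or at most 3 in tubule cells, phagocytes and endothelium of any library.

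The genes whose levels were most like each member were found over 34 sums of a class in a library, among 6400 genes, by Pearson correlation of log2(CPM + 1). This is a description, since the sums share libraries and depth. C3 was nearest to the chemokine gene Cxcl1 (0.76), and C4b to Adap2os (0.77). Cfb was nearest to the amino acid transporter gene Slc7a7 (0.89) and Cfi to Tmem37 (0.73). Cfp was nearest to Pld4 (0.94), C3ar1 to the chemokine gene Ccl9 (0.93) and C5ar1 to the Fc receptor gene Fcgr3 (0.96). C5ar1 was also among the 3 genes nearest to Cfp, at 0.93. Serping1 was nearest to the matrix gene Mgp (0.90). The likeness was lowest for C3, C4b and Cfi and highest for the 3 phagocyte genes.

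The Smart-seq2 plates showed the same phagocyte genes with another chemistry. Of 768 wells, 760 had at least 500 genes and 742 of them were phagocytes by the same markers, with a median of 97936.5 reads per kept well. Reads were found in 90.0% of these wells for C3ar1, 86.9% for Cfp, 84.5% for C5ar1, 26.3% for C3, 16.3% for C4b, 7.82% for Serping1, 2.70% for Cfb and 0.404% for Cfi. In the 22 type 2 dendritic wells, Cfp was read in 22 of 22 with a median of 662 RPM (reads scaled to the well total as for CPM), while C3ar1 and C5ar1 had medians of 21.2 and 9.05. In the 542 macrophage wells the medians were 322 for Cfp, 358 for C3ar1 and 220 for C5ar1. Type 2 dendritic wells thus stood above macrophage wells for Cfp and below them for C3ar1 and C5ar1, as in the droplet libraries. For Cfp in type 1 dendritic cells the order depended on the measure. Their 12 wells had a median of 547 RPM, above macrophage wells. Over summed reads, the measure nearer to droplet CPM, they read 659 RPM, below the 720 of macrophage wells. Droplet type 1 dendritic cells also read below macrophages, at 132 against 313 CPM at day 7 and 44.8 against 220 after reversal. Reads without molecular identifiers are not independent molecules, and time points are mixed in this sample.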

How the data were processed

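Droplet libraries were 10x 3' v2, and per the labels and the submitters' processing notes the authors used Cell Ranger, with STAR and GRCm38/mm10 named; versions are not given in the sources used here. The deposited values are raw UMI counts per gene and cell, and read counts per gene and well for Smart-seq2, in which 93 rows that name no mouse gene held 1.57% of reads and were left out. Every column mapped to a sample (0 did not).

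Kept cells had 200 genes or more and a mitochondrial share of 50% or less. The Scrublet threshold marked 1 to 4 cells per library and had not worked, so the top 0.8% of scores per 1000 deposited cells were removed as doublets. A cell took the class with most detected markers, at least 3 and at least 2 more than any class of another compartment. Counts were summed per class and library. CPM, exact Poisson and binomial 95% intervals, and log2 ratios with a pseudocount of 1 CPM were computed. A ratio was counted past 2-fold where the pair held at least 30 UMIs. Zero counts were given a floor of 3 counts. Clusters came from Leiden clustering at resolution 1 of all kept droplet cells together. Software was Python 3.11.15, scanpy 1.11.5, leidenalg 0.10.2, scipy 1.17.1, R 4.3.3, edgeR 4.0.16 and DESeq2 1.42.0, with edgeR and DESeq2 used for scaling factors only. The scripts were tested on simulated data.

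The rule for named genes was all 8 members, the other complement genes past 2-fold with at least 30 UMIs, and the genes most like each member. Members and lists were chosen with earlier results of these data known. Positions are from GENCODE M21 on GRCm38. Alternatives changed filters, gates, scaling, pseudocount, thinning, weighting of cells and free RNA.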

Additional observations from a re-analysis of the deposited data

Results flagged for a closer look

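Serping1 moved in opposite directions between classes from day 2 to day 7. The log2 difference of day 7 against day 2 was 3.40 in phagocytes and 1.83 in tubule cells, and -1.44 in endothelium. The difference between classes was not tested, since each time point is 1 library. Endothelium rested on 25 UMIs in each of the 2 libraries, and phagocytes on 1 UMI at day 2 and 187 at day 7. After thinning, which leaves fewer UMIs, endothelium read 13.3 CPM of Serping1 at day 2 and 14.7 at day 7. Those readings are too sparse to decide whether the lower endothelial level at day 7 remained. With a gate margin of 1, endothelium at day 7 read 22.5 CPM, from 12.3.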

How the results depend on the processing

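No paired analysis was possible because each group is 1 library, and leaving out a replicate was impossible for the same reason. Of 42 ratios, filters of 500 genes, a gate minimum of 4 and no doublet removal moved none, and a 20% mitochondrial limit moved 12, thinning 22, a pseudocount of 10 CPM 15 and free-RNA subtraction 11. Counting differences of any size, signs changed for 10 ratios after free-RNA subtraction, 6 after thinning, 3 each with the 20% limit and with classes by cluster, 2 each with TMM scaling, DESeq2 size factors and equal weighting, and 1 with a gate margin of 1. In phagocytes, the count for the reversed library against day 7 went from 0 to 2 after free-RNA subtraction. In tubule cells, the count for day 7 against day 2 went from 3 to 0 with a pseudocount of 10 CPM and to 1 after free-RNA subtraction. The count for the reversed library against day 7 went from 4 to 2 with TMM scaling, DESeq2 size factors, a pseudocount of 10 CPM and free-RNA subtraction. Of differences past 2-fold as reported, direction turned for Cfp (-0.14, from 3.38) and C5ar1 (-0.26, from 2.35) in tubule cells at day 2 against sham after free-RNA subtraction, and for C3ar1 in tubule cells, reversed against day 7, after thinning (0.72, from -1.05). C3 in tubule cells at day 2 against sham was 2.82 with the 20% limit, from 5.34. C3 in proximal tubule cells read 3.21, 301, 842 and 67.1 CPM by cluster, 1.73, 271, 407 and 28.0 with each cell equal, and 1.34, 255, 401 and 38.9 after thinning, alternatives added after seeing the data. The cause was not tested. Depth limits sham phagocytes, at 50 cells.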
